A study of Mus musculus with 41 samples.

Results

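The retinoblastoma (RB) pathway is the gate through which a cell passes from growth into DNA synthesis, and 10 of its genes were followed here in 41 mammary tumors that lack Trp53. The genes were Cdkn2a, Cdkn2b, Rb1, Ccnd1, Ccnd2, Cdk4, Cdk6, Ccne1, E2f1 and Myc, taken by name from the arrays, and all 10 were among the 20910 genes that passed the filter on low values. Each gene was read on its probe of highest mean signal, as log2 of the tumor signal over the signal of a common reference. No gene of the 10 passed the test between histologies, between diets or between early and late tumors. Single tumors differed far more, and the tumor farthest from the rest for its gene's spread was MSU_110R, in which Ccnd1 stood 10.82-fold above the epithelial median together with most of the genes next to it on chromosome 7.

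The tumors grew from fragments of Trp53-null BALB/c mammary epithelium, taken from 4 donors 8 weeks old and placed in the cleared fat pads of 3-week-old wild-type female BALB/c mice, so that Trp53 was missing from the transplanted cells of every group and present in the stroma of every host. The low fat diet (LFD) gave 10% and the high fat diet (HFD) 60% of its energy as fat, and mice received LFD throughout, HFD throughout, HFD until 10 weeks of age and then LFD (HFD-LFD), or LFD until 10 weeks and then HFD (LFD-HFD). Of the 29 epithelial tumors, labeled as of variable morphology, 8 arose in LFD mice, 8 in HFD, 7 in HFD-LFD and 6 in LFD-HFD mice. Early tumors, found before 52 weeks, made up 14 of the 29. The 12 spindle cell tumors numbered 3 from each regimen, with 3 early and 9 late. Each was harvested at a diameter of about 1 cm.

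Between arrays, the percentage of spots whose tumor signal was well above background lay between 52.38% and 94.87% over the epithelial tumors, and between 59.14% and 72.66% over the spindle cell ones. Tumor MSU_60L stood apart, with 22.02% of its spots marked as outliers and an r of 0.685 over all probes with the mean of the other arrays, the lowest of the 41. Names of tumors are those of the labels, and the plots leave out their shared first letters. The methods of the study name Cy5 for the reference and the sample labels name Cy5 for the tumor. Ratios were taken as Cy5 over Cy3, and the Y-linked genes Ddx3y and Eif2s3y, which female mice lack, were brighter in Cy3 on 41 of 41 arrays, at median log2 ratios of -6.94 and -6.47. The other Y-linked genes looked at were less clear, with Uty brighter in Cy3 on 36 arrays, at a median of -0.93, and Kdm5d on 16, at a median of 0.18. The direction follows the labels. The arrays of spindle cell tumors shared one scan session that no epithelial tumor was in, so the histologies and the sessions cannot be told apart. Among the epithelial tumors MSU_42L4B and MSU_60L, both early HFD tumors, had a slide and a scan session to themselves. The reference signal was well above background on 53.48% and 47.51% of their spots. The part of that session in their values was not tested. The scanner files labeled MSU_40R4A, MSU_57R and MSU_65R match differently labeled columns of the authors' matrix, and the labels of the scanner files were kept. The probe of Trp53, the deleted gene, was well above background in all 41 tumors, with log2 ratios between -2.25 and 3.74 in epithelial tumors and between 0.08 and 1.95 in the spindle cell group. The highest epithelial ratios were those of MSU_60L at 3.74 and MSU_42L4B at 2.99. Whether that probe lies inside the deleted part is not given in the sources used here. RNA came from whole pieces of tumor, in which fewer cells of a type and less RNA per cell cannot be told apart.

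In dividing cells the D-type cyclins Ccnd1 and Ccnd2 bind the kinases Cdk4 and Cdk6, which phosphorylate Rb1 and so release E2F transcription factors such as E2f1. Free E2F turns on Ccne1, the cyclin that completes the phosphorylation of Rb1, and the enzymes of DNA replication. The products of Cdkn2a and Cdkn2b hold the kinases back. Cdkn2a also encodes Arf, which stabilizes p53, and its transcripts often accumulate in cells that have lost p53 function. Myc is a transcription factor that drives growth and raises the expression of several of these genes.

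The sequences of 3 probes show what was measured for genes on which the results turn. The Ccnd2 probe, on the minus strand at chr6:127098696-127098755 of NCBI37/mm9, is shown because 2 tumors stood far from the rest in this gene. The first Ccne1 probe, on the minus strand at chr7:38885574-38885633, and the first Cdk4 probe, on the plus strand at chr10:126503162-126503221, are shown because their values differed from those of the brighter probes of the same genes.
Ccnd2: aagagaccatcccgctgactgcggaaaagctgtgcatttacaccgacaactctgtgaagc
Ccne1: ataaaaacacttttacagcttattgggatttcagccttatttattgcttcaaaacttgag
Cdk4: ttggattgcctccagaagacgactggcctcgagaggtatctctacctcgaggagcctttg
Each of the 3 sequences has at least 1 reading frame with no stop codon over its 60 bases, and their exon was not read from an annotation of this build. The sequences are those of the array's own probe annotation.

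Cdkn2a, the first of the inhibitors, was above the reference in every tumor, with a median log2 ratio of 5.93 (range 5.22 to 8.15) over the 29 epithelial tumors and of 5.85 (range 5.10 to 6.96) over the 12 spindle cell tumors. The lowest tumor of the series, MSU_M86R at 5.10, was above a ratio of 0 too. Under loess it was 1.20, or -4.0 from the spindle cell median. Loess here means that raw signals were background-corrected by the normexp method, with an offset of 50, and then loess-scaled. It replaced both the background correction and the scaling of the scanner software. The part of the offset in that shift was not tested. The log2 signal of the common reference had an SD of 1.24 over the arrays for this probe, against 1.19 for the tumor signal, and its part in the differences between tumors was not tested. The array lists the probe under a single transcript of the gene, and whether it also reads the other product, p16Ink4a or Arf, was not tested. A second, dimmer probe was well above background in the reference on 25 arrays only and gave an r of 0.41 with the first over the epithelial tumors.

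Cdkn2b, the neighbor of Cdkn2a that encodes p15Ink4b, had medians of 3.14 in epithelial (range 1.51 to 3.96) and 3.09 in spindle cell tumors (range 1.03 to 3.59). Its lowest tumors were MSU_M76R at 1.03, MSU_M86R at 1.42 and MSU_90R at 1.51, while Cdkn2a in the same 3 tumors was 5.38, 5.10 and 6.02. Tumor MSU_108R had the highest Cdkn2a of all at 8.15, where its Cdkn2b was 2.97, near the median. No tumor was below the reference in either gene. The distance between the 2 genes' probes is 31.9 kb, and Mtap, on the other side of Cdkn2a, had a deviation of -0.88 from the epithelial median in MSU_108R. In tumor MSU_42L4B, Cdkn2a was 7.22, 1.29 above the median. Under loess, with its other background correction and offset, it was 3.07, or -2.13 from the median.

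Rb1, the pathway's brake, had medians near the reference, at -0.20 in epithelial (range -1.91 to 1.03) and -0.39 in spindle cell tumors (range -1.28 to 0.76). It was printed on 10 spots per array, and the SD between these spots was 0.067 in the median array and 0.131 in the widest one, against an SD between tumors of 0.74 and 0.63. The lowest Rb1 was in tumor MSU_13L and the next lowest epithelial value was that of MSU_60L at -1.22. The spots of Ccnd1, Ccnd2, Cdk4, Ccne1 and Myc were outliers on the array of MSU_60L and were left out, so these genes rest on 28 epithelial tumors, and the fits on these probes drop MSU_60L for them.

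Ccnd1 lay above the reference in every tumor with a value. In epithelial tumors its median was 1.90, with MSU_13L lowest at 0.05 and MSU_110R highest at 5.33. In spindle cell tumors the median was 1.45, with MSU_M76R lowest at 0.07 and MSU_M63L highest at 2.95. Ccnd2 lay below the reference in most tumors, with medians of -1.85 in epithelial (range -3.23 to 1.80) and -1.67 in spindle cell tumors (range -2.54 to 0.74). The histologies overlapped in both cyclins. The level of one cyclin cannot be set against the other here, since a ratio to the reference depends on the reference's own level of each gene.

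Cdk4 was the steadiest of the 10. Its lowest and highest ratios were -0.26 and 1.20 among epithelial and -0.39 and 0.45 among spindle cell tumors, and 88.7% of all genes had a larger SD than its 0.32 in epithelial tumors. Cdk6 was the least steady, with an SD of 1.66 that 1.60% of genes exceeded, but its probe was dim and not well above background in the tumor channel in 13 of the 41 tumors, 11 of them epithelial. Ccnd2 came next with an SD of 1.34, exceeded by 4.39% of genes. The median SD over all genes was 0.56 in epithelial tumors.

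Ccne1 and E2f1, which act after the D-type cyclins, had medians near the reference. In epithelial tumors Ccne1 had a median of 0.04 (range -0.81 to 1.35) and E2f1 one of 0.14 (range -0.80 to 1.05). In spindle cell tumors the medians were 0.16 and 0.23. Myc lay above the reference in most tumors, with a median of 1.1 in epithelial and 1.60 in spindle cell tumors, and lay below it in MSU_13L, MSU_108R and MSU_M76R only, at -1.60, -0.38 and -0.20.

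**Figure D1:**
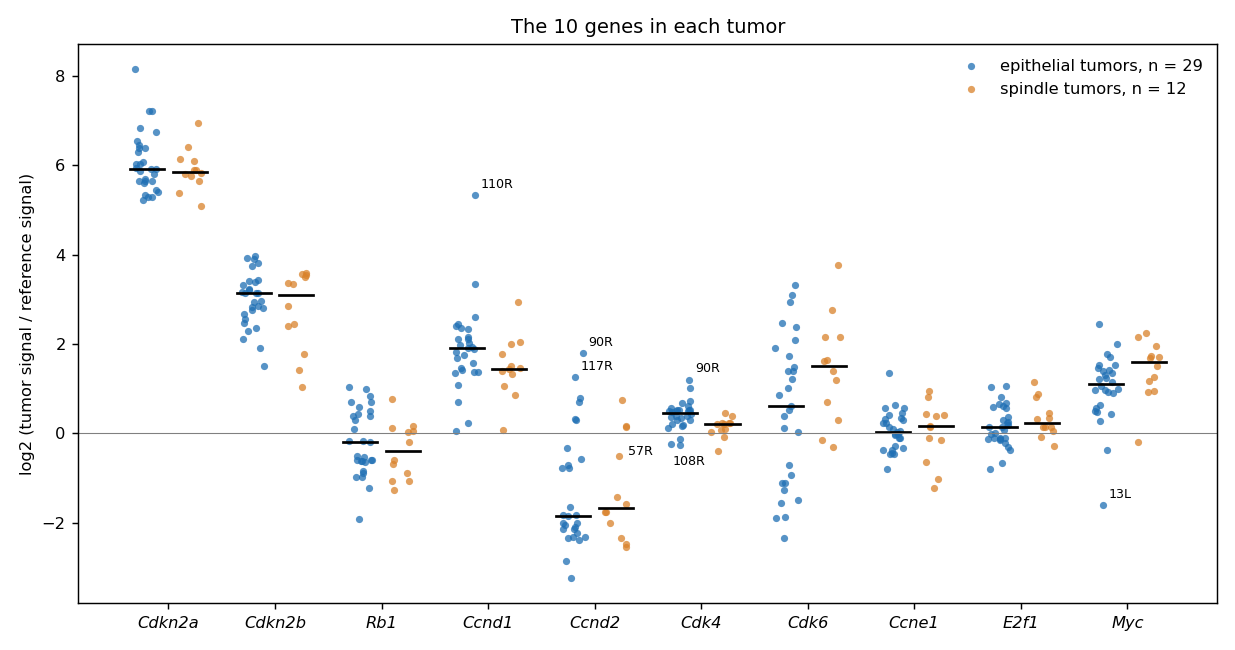
Log2 ratio of tumor over reference signal (vertical axis) for the 10 genes (horizontal axis), 1 point per tumor, blue for the 29 epithelial and orange for the 12 spindle cell tumors, with a bar at the median of each. Tumor names mark values more than 3.5 scaled median absolute deviations from the epithelial median, among them Ccnd1 in MSU_110R at 5.33 and Myc in MSU_13L at -1.60.

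To find single tumors that stood apart, each value was set against the median of its own histology and counted as far when it lay more than 3.5 times the scaled median absolute deviation away. 7 values in 6 epithelial tumors were far and no value in a spindle cell tumor was. Under loess 2 spindle cell values were far, Cdk4 in MSU_M76R at -5.26 and Cdkn2a in MSU_M86R at -5.71 scaled deviations, and with the mean over all probes 2 were, Cdk4 at -5.54 and Cdkn2a at -4.32 in MSU_M76R. The 7 far values of the epithelial tumors were Ccnd1 in MSU_110R, Ccnd2 in MSU_90R and MSU_117R, Myc in MSU_13L, and Cdk4 in MSU_90R, MSU_108R and MSU_57R. The 3 Cdk4 values were small in size, within 0.75 of the median, where the scaled median absolute deviation of Cdk4 was 0.20. Of the 53 genes with a probe within 1000 kb of that of Cdk4, 2 lay more than 1 from the median in the same direction in MSU_108R, 2 in MSU_57R and 5 in MSU_90R, or 3.77%, 3.77% and 9.43%, against 13.9%, 4.86% and 7.67% of all genes. Just short of the limit were Ccnd2 in MSU_66L at 3.39 and Cdkn2a in MSU_108R at 3.34 scaled deviations, and just past it Cdk4 in MSU_57R at -3.51 and in MSU_108R at -3.55.

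Tumor MSU_110R, a late HFD-LFD tumor, had a Ccnd1 log2 ratio of 5.33, which was 3.44 above the epithelial median. The next highest epithelial value was 3.34, in tumor MSU_31R. The Ccnd1 probe lies at chr7:152116202-152116261 of NCBI37/mm9, and 11 other genes on the arrays have a probe within 1000 kb of it. In MSU_110R, 7 of these 11, or 63.6%, were more than 1 above their epithelial median, while 3.63% of all genes measured in that tumor were. The median deviation of the 11 neighbors was 2.31, against 0.00 for all genes.

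The genes raised in MSU_110R formed a run on one side of Ccnd1. Cttn, which encodes the actin-binding protein cortactin, had a log2 ratio of 3.79, 2.82 above the epithelial median of 0.97. Ppfia1, a scaffold protein of cell adhesions, was 2.98 above its median, Fadd, an adaptor of death receptor signaling, 2.31, and the chloride channel gene Ano1 2.42. Each of these 4 was higher in MSU_110R than in any other of the 29 epithelial tumors. Closer to Ccnd1, Fgf15 was 5.66 and Oraov1 2.83 above the median, second only to MSU_31R, and under loess Fgf15 was 3.95 above. On the other side of Ccnd1 the values were near the median, with 1810010D01Rik at 275.6 kb at -0.44, Tpcn2 at 323.7 kb at -0.21 and Mrgprf at 379.0 kb at 0.03 relative to the median. A probe with no gene name between Ano1 and Fgf15 was also not raised, at -0.32. The region of human chromosome 11 that carries the same genes is often amplified in breast cancer, which is background only, since DNA copy number was not measured in these tumors and its part in the values was not tested.

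Tumor MSU_31R, an early LFD tumor looked at after these values were seen, was raised in a different set of genes of the same region. Of the 11 neighbors, 6 were more than 1 above the median, with Fgf15 at 6.75, Tpcn2 at 4.24, Oraov1 at 3.33 and 1810010D01Rik at 3.28, while Ppfia1, Fadd and Ano1 were at 0.07, 0.25 and 0.40. Under loess Tpcn2 was 1.86 above. Its Ccnd1 was 1.45 above the median. No other epithelial tumor had more than 2 raised neighbors. The median deviation of the 11 was 1.21 in MSU_31R and 2.31 in MSU_110R, and 0.35 in the next tumor, MSU_60L. Over the 143 genes within 5000 kb, Ccnd1 among them, a width chosen after the values were seen, 22 were more than 1 above the median in MSU_110R and 31 in MSU_31R, or 15.4% and 21.7%, against 3.63% and 7.21% of all genes in those tumors. In MSU_31R those included a second run of genes from 6330512M04Rik at -2574.2 kb, at 3.11 above its median, with the protease gene Ctsd 3.55, the mitochondrial ribosome gene Mrpl23 3.68 and the growth factor gene Igf2 4.98 above their medians. In MSU_110R these 3 genes were at -0.44, 0.22 and -0.51. It had other raised genes between -2037.5 and -1676.1 kb, among them the transcription factor gene Ascl2 at 3.54, the channel gene Trpm5 at 3.28 (1.63 under loess) and the noncoding Kcnq1ot1 at 2.49 above their medians, each the highest of the 29. Farther out, Tmem80 at -3593.3 kb and Taldo1 at -3527.4 kb were 1.56 and 1.45 above.

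**Figure D2:**
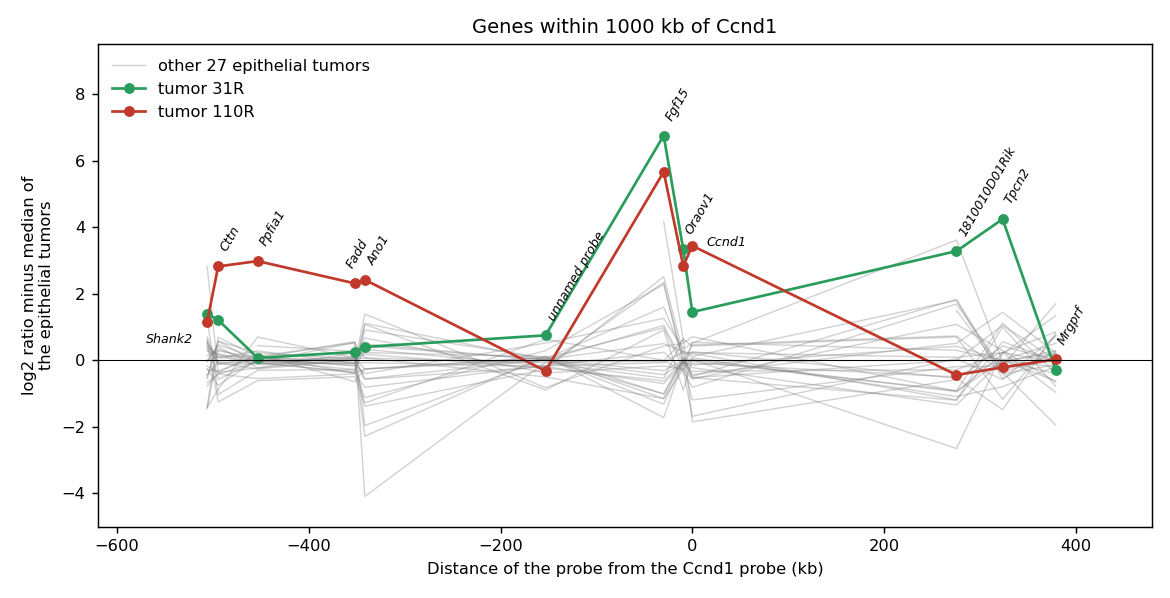
Deviation of each gene's log2 ratio from the median of the epithelial tumors (vertical axis) against the distance of its probe from the Ccnd1 probe in kb (horizontal axis), for tumor MSU_110R in red, MSU_31R in green and the other 27 epithelial tumors in gray. In MSU_110R the genes from Cttn to Ccnd1 lie 2.31 to 5.66 above the median except 1 unnamed probe, and in MSU_31R the genes from Fgf15 to Tpcn2 lie 1.45 to 6.75 above it.

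The second D-type cyclin varied in another way. Ccnd2 fell into a dense low range and a scattered high one, with 17 of 28 epithelial tumors between -3.23 and -1.66, 5 between -0.78 and -0.32, and 6 above the reference. The 6 were MSU_117L at 0.30, MSU_17R at 0.31, MSU_57R at 0.70, MSU_66L at 0.79, MSU_117R at 1.26 and MSU_90R at 1.80. They came from all 4 regimens and from both early and late tumors. In spindle cell tumors 3 of 12 were above the reference, MSU_M76R at 0.14, MSU_M32L at 0.16 and MSU_M129L at 0.74. Tumors MSU_117L and MSU_117R share a number in their labels, as do MSU_11L and MSU_11R, which differ in onset, and MSU_56R and MSU_M56LA, which differ in histology. No source used here says if a shared number means a shared host, and the tests treat all tumors as separate samples.

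The 2 Ccnd2 values beyond the limit, 3.65 above the median in MSU_90R and 3.11 in MSU_117R, were 12.58-fold and 8.63-fold differences. Among the 16 genes within 1000 kb of Ccnd2, 2 of the 15 with a value were raised by more than 1 in MSU_90R and 1 of 16 in MSU_117R, or 13.3% and 6.25%, against 7.67% and 7.59% of all genes. Over the 28 epithelial tumors with a value the genes with the highest correlation to Ccnd2 were Btbd11 at an r of 0.83, Irx4 at 0.82 and Kctd4 at 0.81, each on another chromosome.

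**Figure D3:**
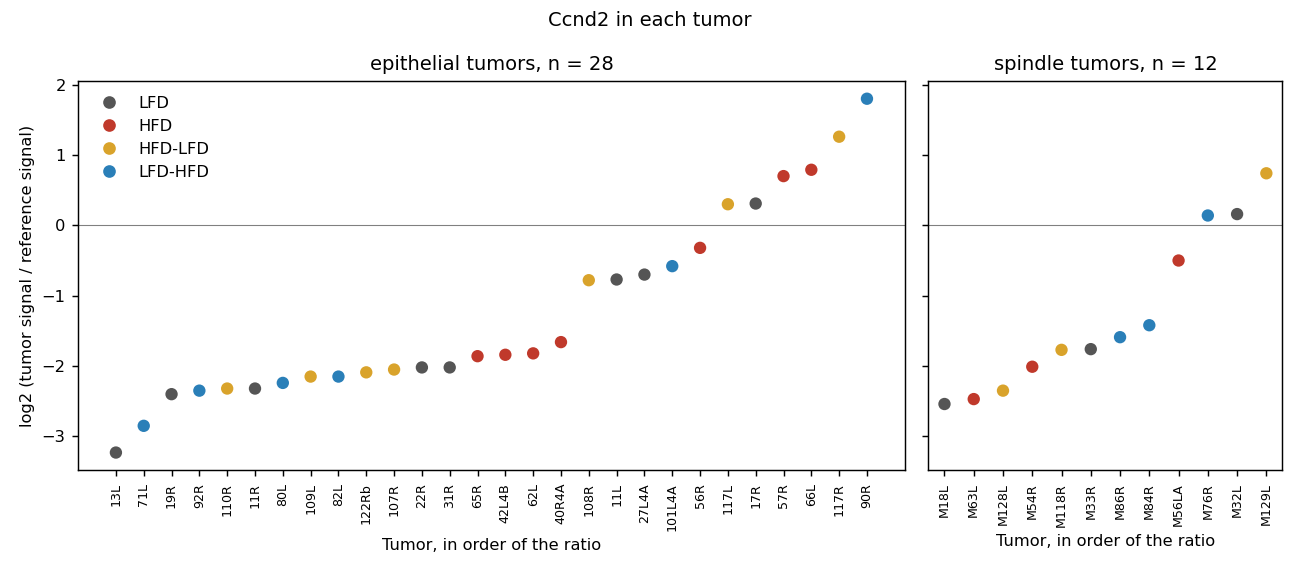
Log2 ratio of Ccnd2 (vertical axis) in each tumor, in order of the ratio (horizontal axis), for 28 epithelial tumors on the left and 12 spindle cell tumors on the right, colored by regimen. A gap separates 17 epithelial tumors at -1.66 or lower from 11 at -0.78 or higher, and each side holds all 4 regimens.

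Tumor MSU_90R had the highest Cdk4 as well as the highest Ccnd2, with Cdk4 at 1.20 against a median of 0.45, and the lowest epithelial Cdkn2b at 1.51. In MSU_117R, second in both cyclin D2 and Cdk4, the Cdk4 value was 1.02 and Cdkn2b was 3.41. The 2 epithelial tumors with the lowest Cdk4, MSU_108R at -0.26 and MSU_57R at -0.25, differed in Cdk6, at -0.71 in MSU_108R and 3.10 in MSU_57R. The label of MSU_57R is among the 3 in dispute.

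Tumor MSU_13L, a late LFD tumor, was at an extreme of the epithelial tumors in 6 of the 10 genes. It had the lowest Rb1 at -1.91, the lowest Ccnd1 at 0.05, the lowest Ccnd2 at -3.23 and the lowest Myc at -1.60, with the highest Ccne1 at 1.35 and the highest E2f1 at 1.05. The inhibitors were near their medians, with Cdkn2a at 5.65 and Cdkn2b at 3.15. Myc was the one value past the limit, with a deviation of -2.70, and none of its 5 neighbors within 1000 kb was lowered by more than 1. The share of all genes at an extreme in MSU_13L was not counted, so the 6 of 10 cannot be read as particular to the pathway. The array of MSU_13L had an r of 0.787 over all probes with the mean of the other arrays.

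Genes driven by E2F also lay away from their medians in MSU_13L. Of 20 genes driven by E2F, all with a value, 7 were more than 1 above the epithelial median and none more than 1 below, with a median of 0.69, while 11.4% of all genes were above and 12.4% below by that much. The 7 included Rrm1 and Rrm2, the subunits of ribonucleotide reductase, at 1.84 and 1.77, the polymerase subunit Pola1 at 1.79 and the mitotic kinase Cdk1 at 1.77. Among 21 other genes of the RB pathway, 2 were more than 1 above and 3 more than 1 below their medians, near the shares of all genes. The lower ones were Cdk2 at -3.09, Tfdp2 at -3.01 and Tfdp1 at -2.13, the last 2 being partners of the E2F proteins. E2f7 and Skp2 were 1.38 and 1.07 above their medians. Of 10 genes driven by Myc only Odc1, the first enzyme of polyamine synthesis, was past 1, at 2.09 above, and the median of the list was 0.43. Mycn, a relative of Myc, was 1.49 above its median but still below the reference at -1.24.

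Markers of several cell types were low in MSU_13L. The mean log2 ratio of the 6 mesenchymal markers was -3.00, next to the lowest of the 29 epithelial tumors, where they ranged from -3.10 to -0.24, and that of the 2 endothelial markers was the lowest at -3.96, in a range up to 1.01. The 6 epithelial markers were also lowest, at -0.19 against a median of 1.13. The leukocyte markers were at -0.03, rank 27 of 29, while the adipocyte markers at -3.76 and the skeletal muscle markers at -5.22 were near their medians of -3.70 and -5.42. The part of these differences in the values of MSU_13L was not tested. Tumor MSU_110R was among the higher tumors for the E2F-driven genes as well, with a mean log2 ratio of 1.36, rank 3 of 29, against 1.41 in MSU_13L, rank 2, and its mesenchymal markers were near the median at -1.72.

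**Figure D4:**
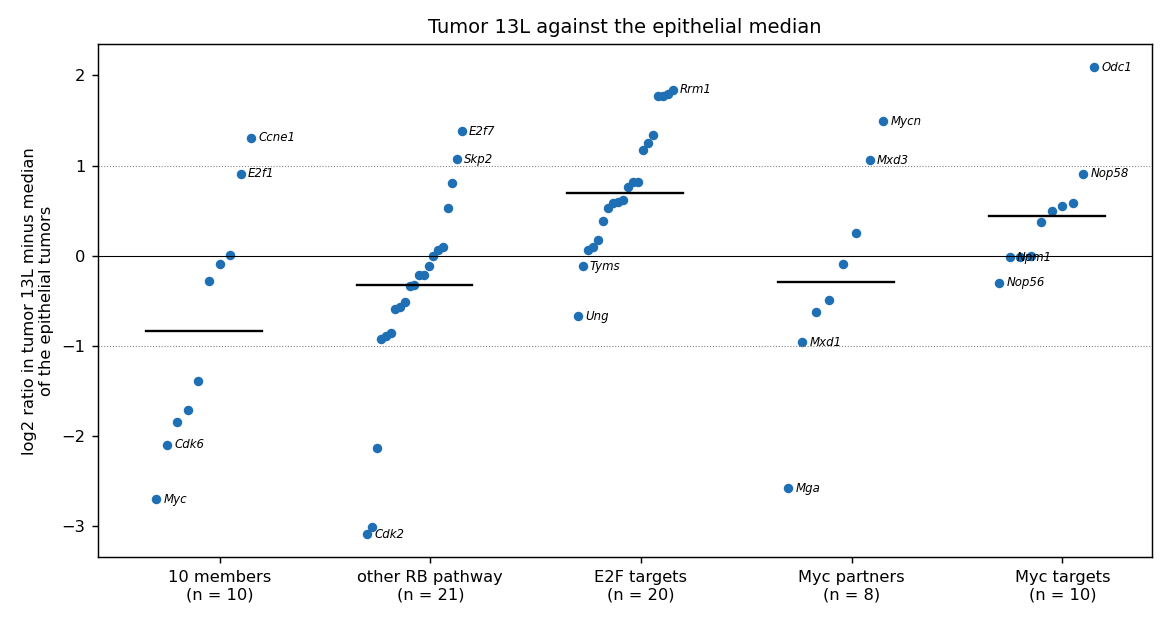
Deviation of each gene in tumor MSU_13L from the median of the epithelial tumors (vertical axis, log2) for the 10 genes and 4 lists of related genes (horizontal axis), with a bar at the median of each list and dotted lines at 1 and -1. The E2F targets have 7 of 20 genes above 1 and none below -1, with a median of 0.69.

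Among the spindle cell tumors, MSU_M63L was at an extreme in 6 of the 10 genes and MSU_M76R in 4. MSU_M63L, a late HFD tumor, had the lowest Rb1 at -1.28 and Ccne1 at -1.22, and the highest Cdkn2a at 6.96, Ccnd1 at 2.95, Cdk6 at 3.78 and E2f1 at 1.14. MSU_M76R, a late LFD-HFD tumor, had the lowest Cdkn2b at 1.03, Ccnd1 at 0.07, Cdk4 at -0.39 and Myc at -0.20. The share of all genes at an extreme in these tumors was not counted. Over all probes, the r with the mean of the other arrays was 0.801 for MSU_M63L and 0.740 for MSU_M76R. The E2F-driven genes were lowest in MSU_M76R, with a mean log2 ratio of -0.60 in a range up to 0.86. The 2 adipocyte markers had a mean log2 ratio of 2.94 in MSU_M76R, the highest of the 12, whose median was -5.12, and this tumor was also highest for the endothelial markers at 1.5 and the skeletal muscle markers at -3.35, and second for the leukocyte markers at 1.94 and the mesenchymal markers at 0.22. Their part in the values of MSU_M76R was not tested.

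Spindle cell tumors were compared with epithelial tumors to ask whether the histologies differ in the pathway. None of the 10 genes passed limma's test at an adjusted p of 0.05, while 20.2% of all genes did. By limma, 1 of the 10 had an unadjusted p under 0.05, against 6971 of all 20910 genes. SAM, a permutation method, also called none of the 10 here, where it called 13.1% of all genes. It called none of the 10 between diets in puberty or onsets either. The gene with the low unadjusted p was Cdk4, with a mean of 0.14 ± 0.22 (SD, n = 12) in spindle cell against 0.41 ± 0.32 (SD, n = 28) in epithelial tumors. The log2 difference was -0.27 with a standard error of 0.11 and an adjusted p of 0.0736 by limma. Its direction was not settled. It turned to 0.12 under median centering, in which signals corrected by normexp with the offset were centered per array with no loess. The Cdk4 probe shown above had a median of 0.50 in spindle cell and 0.02 in epithelial tumors. The 2 histologies overlapped in all 10 genes. For Ccnd1 the difference was -0.39 with a 95% interval from -1.0 to 0.22, and for Myc it was 0.41 with an interval from -0.09 to 0.92.

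The 2 probes of Ccne1 disagreed more. On the bright probe used here the medians were 0.16 in spindle cell and 0.04 in epithelial tumors. On the dim probe shown above the 29 epithelial tumors ran from -0.51 to 2.08 with a median of 0.35, and the 5 spindle cell tumors whose spot was not marked as an outlier ran from 1.53 to 4.62 with a median of 3.89. With the 7 outlier spots kept, the median of the 12 was 2.79. The probes correlated at an r of 0.52 over the epithelial tumors. All 7 outlier spots were on the arrays of the spindle cell session, and the part of the session in the dim probe's values was not tested.

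In the wider pathway, calls are set against all genes tested, of which 12.2% were called lower in spindle cell tumors and 7.92% higher. Of 21 other RB pathway genes tested, 4 were called lower and none higher, namely Ccna2, the cyclin of S phase, at -0.54, the transcription factor E2f2 at -0.58, the E2F partner Tfdp2 at -0.72 and the phosphatase Cdc25a at -0.52. Of 20 genes driven by E2F, 3 were called lower, among them the helicase subunit Mcm6 at -0.62 and the replication clamp Pcna at -0.36, and the median of the list was -0.27, against -0.07 for all genes. Of 10 genes driven by Myc, 3 were called lower, Polr1b at -0.66, Nop56 at -0.34 and Fbl at -0.30, which serve ribosome production, and the polyamine enzyme Srm was called higher at 0.66. No gene of the 8 Myc partners tested was called. These adjusted p-values by limma ran from 0.00339 for Srm to 0.0454 for Fbl. Under median centering, which leaves out loess, the median difference of all genes moved from -0.07 to 0.18. None of these 10 lower calls then held, and Pcna, Nop56 and Fbl lay at 0.02, 0.15 and 0.14. Of the 6 mesenchymal markers 5 were called higher in spindle cell tumors, among them Vim at 1.19, as was 1 of the 2 endothelial markers, Pecam1 at 0.87, and none of the 6 epithelial markers was called. Their part in the differences between histologies was not tested.

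Diet was compared over the 4 regimens in epithelial tumors, to ask whether fat intake or its timing goes with the level of these genes. By limma, 2 of the 10 had an unadjusted p under 0.05, against 2708 of all 20910 genes. No gene of the 10 passed limma's test at an adjusted p of 0.10, while 0.473% of all genes did. Cdk6 came closest. Its median log2 ratio was 2.28 (range 0.60 to 3.31) in the 8 HFD tumors, 0.77 (range -1.56 to 1.90) in the 8 LFD tumors, -0.71 (range -1.90 to 2.37) in the 7 HFD-LFD tumors and -1.19 (range -2.34 to 0.86) in the 6 LFD-HFD tumors. HFD and LFD-HFD tumors overlapped in 1 value only, that of MSU_60L at 0.60, which was below MSU_101L4A at 0.86. The means were 2.14 ± 0.99 in HFD, 0.45 ± 1.37 in LFD, -0.11 ± 1.51 in HFD-LFD and -0.89 ± 1.26 in LFD-HFD tumors (SD, n = 8, 8, 7 and 6), and the adjusted p over the 4 regimens by limma was 0.102.

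Most of the low Cdk6 values were not measured well above background. The tumor channel was well above background in 7 of 8 HFD, 6 of 8 LFD, 3 of 7 HFD-LFD and 2 of 6 LFD-HFD tumors. A ratio on such a spot gives only an upper bound where the reference was well above background, as it was on 8 of these 13 arrays, and no bound on the other 5. The tumor channel was not well above background in any of the 3 early LFD-HFD tumors. Of the slides with epithelial tumors 1 held more than 1 regimen, on which 2 HFD tumors had Cdk6 at 2.09 and 3.31 and 2 LFD-HFD tumors at -1.27 and -1.12. These 2 HFD tumors were late and the 2 LFD-HFD tumors early. Without tumors MSU_42L4B and MSU_60L the adjusted p of Cdk6 by limma was 0.0724.

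Cdkn2a and Rb1 had the next smallest p over the regimens. Cdkn2a had means of 5.65 ± 0.29 in LFD, 5.92 ± 0.56 in HFD, 6.5 ± 1.04 in HFD-LFD and 6.33 ± 0.31 in LFD-HFD tumors, with an adjusted p of 0.384 by limma. The HFD-LFD group held both the lowest value, MSU_109L at 5.22, and the highest, MSU_108R at 8.15. With the mean of both Cdkn2a probes the adjusted p by limma was 0.0824. Rb1 had means of -0.33 ± 0.84 in LFD, -0.62 ± 0.51 in HFD, 0.07 ± 0.58 in HFD-LFD and 0.33 ± 0.77 in LFD-HFD tumors, with an adjusted p of 0.402 by limma. The remaining 7 genes had adjusted p-values by limma from 0.618 for Ccne1 to 0.980 for Cdkn2b.

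**Figure D5:**
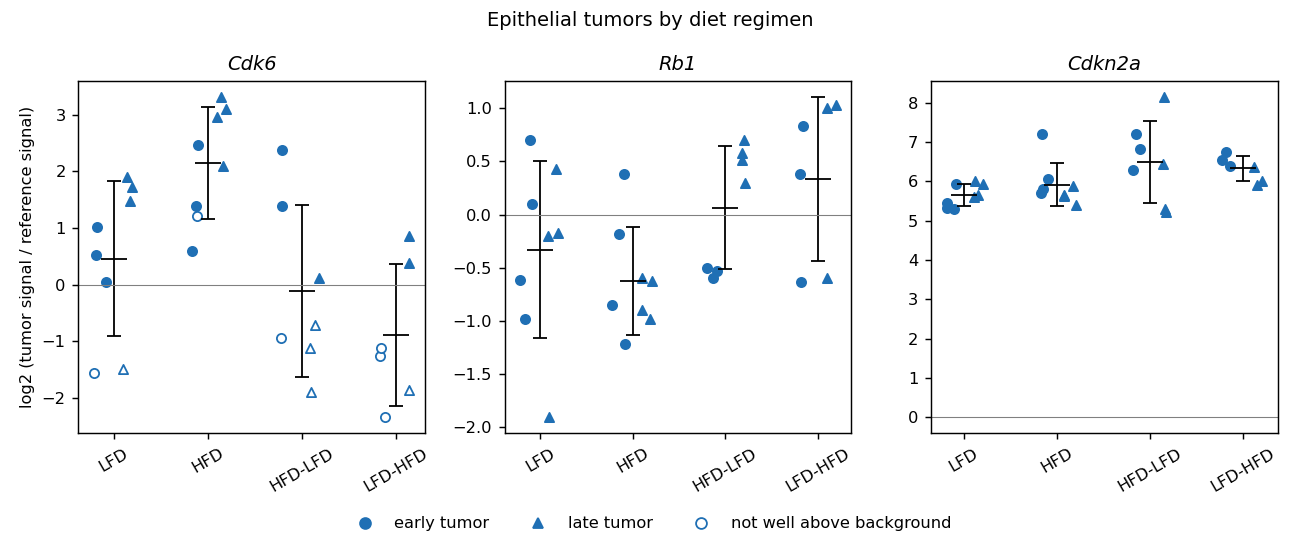
Log2 ratio of tumor over reference signal (vertical axes) for Cdk6, Rb1 and Cdkn2a in epithelial tumors by regimen (horizontal axes), circles for early and triangles for late tumors, open where the tumor signal was not well above background, with the mean and SD of each regimen. For Cdk6 the HFD tumors lie at 0.60 to 3.31 and 4 of the 6 LFD-HFD tumors are open points.

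In the 12 spindle cell tumors, 3 for each regimen, no gene of the 10 and 0% of all 20902 genes passed at an adjusted p of 0.10 by limma, and none of the 10 had an unadjusted p under 0.05, against 781 of all genes. Cdk6 was 1.19, 2.15 and 3.78 in HFD, 0.70, 2.16 and 2.75 in HFD-LFD, 0.29, 1.40 and 1.62 in LFD-HFD and -0.30, -0.15 and 1.64 in LFD tumors. HFD minus LFD was a log2 difference of 1.98 with a standard error of 0.78 and an adjusted p of 0.973 by limma. The 4 groups overlapped.

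The 21 tumors of mice with HFD in puberty (HFD and HFD-LFD) were compared with the 20 tumors of mice without it. None of the 10 genes was called at an adjusted p of 0.10 by limma, and 0.00956% of all genes were called. By limma, 1 of the 10 had an unadjusted p under 0.05, against 1453 of all 20910 genes. The 1 gene was Cdk6, with means of 1.38 ± 1.58 (SD, n = 21) and 0.14 ± 1.35 (SD, n = 20). The log2 difference was 1.24 with a standard error of 0.44, a 95% interval from 0.35 to 2.14 and an adjusted p of 0.603 by limma. Ccnd1 differed by 0.46 with a 95% interval from -0.10 to 1.01, and Cdkn2b by 0.34 with an interval from -0.09 to 0.77. Whether the pubertal difference itself differed between the histologies was tested as an interaction. None of the 10 genes was called there by limma, and 0.445% of all genes were called. None of the 10 had an unadjusted p under 0.05 by limma, against 2558 of all 20908 genes. Cdkn2b had the smallest p there, with pubertal HFD against none at a mean of 3.21 against 2.26 in spindle cell and 3.04 against 2.96 in epithelial tumors, a difference of 0.88 with an adjusted p of 0.430 by limma. Cdkn2a, at 0.29 with an adjusted p of 0.833 by limma, was called at 1.87 under loess and at 2.39 under median centering, with 2364 and 853 of all genes. The spindle cell tumors lowest in Cdkn2b, MSU_M76R, MSU_M86R and MSU_M18L, at 1.03, 1.42 and 1.77, all belonged to the group without pubertal HFD. The rest of that group, at 2.44, 3.37 and 3.51, lay inside the range of 2.41 to 3.59 of spindle cell tumors with pubertal HFD.

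Early and late epithelial tumors were compared to ask whether tumors that appear sooner differ. None of the 10 genes was called at an adjusted p of 0.10 by limma, and 0.143% of all genes were called. By limma, 1 of the 10 had an unadjusted p under 0.05, against 2753 of all 20910 genes. Cdkn2b was that gene, at 3.23 ± 0.52 (mean and SD, n = 14) when early and 2.78 ± 0.62 (n = 15) when late, a log2 difference of 0.46 with a standard error of 0.21 and an adjusted p of 0.348 by limma. Cdk4 was 0.25 higher in early tumors with a 95% interval from -0.01 to 0.50. Late tumors were more spread in several genes, with an SD of 1.24 against 0.56 for Ccnd1 and of 0.97 against 0.38 for Myc, and both the Ccnd1 value of MSU_110R and the Myc value of MSU_13L were in the late group. The difference in spread was not tested. Both onsets were present on 3 slides, where early minus late for Cdkn2b was -0.04, 1.64 and 0.45. On the same slides it was -3.89, -2.13 and -1.10 for Cdk6 and -1.23, -1.61 and -2.51 for Ccnd2, while over all epithelial tumors the differences were -0.45 with a 95% interval from -1.66 to 0.75 and -0.32 with one from -1.31 to 0.68. On the first of these slides early and late tumors also differed in regimen, and the second held 1 early tumor. The early tumors of both slides were LFD-HFD tumors in which Cdk6 was not well above background in the tumor channel. The values of -3.89 and -2.13 for Cdk6 thus rest on early tumors in which it was not well measured. The third slide held MSU_40R4A, MSU_57R and MSU_65R, whose labels are in dispute. By the labels of the matrix, MSU_57R with a Ccnd2 of 0.70 would be early and MSU_65R with -1.86 late.

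Relations between the 10 genes were computed over the tumors of each histology, 45 pairs in each, with p from 100000 permutations and Benjamini-Hochberg adjustment over the 45. Over 28 epithelial tumors Rb1 and Ccne1 ran against each other, at a Pearson r of -0.66 with a permutation p of 1.30e-04 and an adjusted p of 0.00585, and a Spearman rho of -0.55 with a p of 0.00282 and an adjusted p of 0.0634. Without MSU_13L and MSU_71L, the 2 tumors farthest from the median of Rb1, r was -0.61, and with values centered on each slide it was -0.59 with a permutation p of 8.30e-04 and an adjusted p of 0.0297. E2f1 and Myc had an r of -0.59 with a permutation p of 8.60e-04 and an adjusted p of 0.0193, and a rho of -0.41 with a permutation p of 0.0320 and an adjusted p of 0.240. That relation rests on MSU_13L and MSU_108R, since without them its r was -0.33. Ccnd2 and Cdk6 had a rho of 0.60 with a permutation p of 8.60e-04 and an adjusted p of 0.0387, and an r of 0.51 with a permutation p of 0.00623 and an adjusted p of 0.0934. Many of these Cdk6 ratios were not well above background. Over the 15 tumors in which Cdk6 was so in both channels, a choice made after the values were seen, the relation did not pass, with a rho of 0.23 (permutation p and adjusted p of 0.404) and an r of 0.21 (permutation p and adjusted p of 0.448). Adjustment there covered only this pair and Ccnd1 with Cdk6 in spindle cell tumors.

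Over the 12 spindle cell tumors 1 pair passed, Ccnd1 and Cdk6, at an r of 0.87 with a permutation p of 2.70e-04 and an adjusted p of 0.0121, and a rho of 0.83 with a permutation p of 0.00140 and an adjusted p of 0.0630. Over the 10 tumors in which Cdk6 was well above background in both channels r was 0.90 with a permutation p of 2.60e-04 and an adjusted p of 5.20e-04, and rho was 0.76 with a permutation p of 0.0150 and an adjusted p of 0.0300. Without MSU_M63L and MSU_M76R the r was 0.89, and with values centered on each slide it was 0.89 with a permutation p of 1.80e-04. In epithelial tumors the gene most like Ccnd1 was Ppfia1, at an r of 0.75 over 28 tumors, whose probe is at -453.3 kb from that of Ccnd1. Those tumors include MSU_110R, where Ccnd1 and Ppfia1 were 3.44 and 2.98 above their medians, and the r without it was not computed. For Cdk4 it was a transcript whose probe overlaps the Cdk4 probe on chromosome 10, at an r of 0.94. For Cdkn2a the gene was Csprs at 0.79, for Cdk6 Sephs2 at 0.84 and for Myc the transcript 4933439F18Rik at 0.82.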

How the data were processed

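RNA of 41 tumors was hybridized to 2-colour Agilent arrays against a common reference pooled from cell lines of the mouse. The deposited scanner files hold Agilent Feature Extraction output, with intensities that the software had background-subtracted and dye-normalized before the authors deposited them (Feature Extraction 8.5.1.1 per the labels, 10.5.1.1 and 11.0.1.1 per the file headers). The authors' matrix holds log2 ratios and served as an alternative. No other normalization was applied to the main values, log2 of rProcessedSignal over gProcessedSignal. Control spots and outlier spots (1.48%) were left out and spots of a probe averaged. Of 39429 probes, 27304 had tumor and reference signals above 10 on 80% of arrays or more, and the probe of highest mean signal stood for each of 20910 genes. Limma 3.58.1 in R 4.3.3 was fitted over all genes with Benjamini-Hochberg adjustment, with thresholds of 0.05 between histologies and 0.10 elsewhere. The fits were tested on simulated data. Named were the 10 genes, per list the called genes (at most 5 a comparison, with 1 called gene not reported here), per far tumor up to 5 genes within 1000 kb of largest deviation, and the genes of highest correlation. Other neighbors of Ccnd1, tumor MSU_31R and list genes in single tumors were named after their values were seen. The genes, the lists and the comparisons were chosen with earlier results of these data known. The number of arrays limits the precision, and tumors of a group are the replicates. Alternatives are given at the end. Other normalizations, filters, probes, samples and SAM with 100 permutations were tried. The loess and median-centering alternatives both started from raw signals, background-corrected by normexp with an offset of 50. Median centering used no loess, and so no dye correction that depends on intensity.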

Additional observations from a re-analysis of the deposited data

Results flagged for a closer look

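In each group of 4 to 10 epithelial tumors of 1 regimen, the gap between the outermost tumor and the next was set against the range of the group, for the 10 genes. Of 40 such groups 2 held a tumor that stood apart at the 95% level, where chance gives about 1 in 20. Cdkn2a was 7.22 in tumor MSU_42L4B, an early HFD tumor, and the next highest HFD tumor was at 6.07. The array of MSU_42L4B shared its scan session with MSU_60L only, and under loess its Cdkn2a was 3.07, below the epithelial median. Cdk4 was -0.13 in tumor MSU_19R, a late LFD tumor, and the next lowest LFD tumor was at 0.29.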

How the results depend on the processing

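Between histologies the number of the 10 genes called was 1 instead of 0 under loess (Cdk4 -0.35, adjusted p by limma 0.0139), in the authors' matrix (Cdk4 -0.38, 0.0107), without MSU_40R4A, MSU_57R and MSU_65R (Cdk4 -0.30, 0.0422) and without MSU_M32L, MSU_M76R and MSU_M86R (Myc 0.70, 0.0484). The shares of all genes called in those settings were 16.2%, 18.4%, 18.5% and 22.1%, in that order, against 20.2% in the main fit. Cdk4 turned to 0.12 under median centering. Over the regimens of epithelial tumors the number of the 10 genes called was 1 with the mean over all probes (Cdkn2a). It was 1 too without MSU_42L4B and MSU_60L (Cdk6). The shares of all genes called there were 0.43% and 0.794%. For the interaction the number was 1 under loess (Cdkn2a 1.87) and 1 under median centering (Cdkn2a 2.39). Leaving out 1 tumor at a time gave 0 to 1 between histologies (Cdk4, without MSU_108R or MSU_57R, adjusted p by limma 0.0405 and 0.0419) and 0 to 1 over the regimens of epithelial tumors (Cdk6, without MSU_101L4A, MSU_107R, MSU_117R, MSU_11L, MSU_13L or MSU_60L, 0.0759 to 0.0869), and 0 elsewhere. SAM called 0 of the 10 genes in the 3 comparisons it was run on. It called 13.1% of all genes between histologies and 151 genes between early and late tumors. Values far from the rest numbered 12, in 10 tumors, in the authors' matrix against 7 in 6 tumors, and Cdk4 in MSU_57R turned to 0.07 there. The matrix column of that label matches the scanner file labeled MSU_65R, so that value comes from another array. Relations that passed numbered 4 under loess against 2 in epithelial tumors, and 2 under loess and 7 with values centered on slides against 1 in spindle cell tumors. The rho of Ccnd2 and Cdk6 was 0.23 over tumors with Cdk6 above background in both channels, a choice made after seeing the data. The causes were not tested. Counts over all genes moved more: between histologies 4218 became 2550 with slide as a random block, 2348 in late tumors alone and 7892 with no filter. Over the regimens of epithelial tumors 99 became 0 with slide as a random block, 5 under median centering, 10 with 1 tumor per shared number and 200 in the authors' matrix. Apart from leaving out 1 tumor at a time, 30 between early and late tumors lay between 0 and 59 by limma and was 151 by SAM, and 93 for the interaction lay between 16 and 2364. With 1 tumor left out at a time the counts ran from 0 to 289 between early and late tumors and from 6 to 494 for the interaction. No paired analysis was possible because replicate numbers were given in accession order and pair no tumors. With 3 spindle cell tumors per regimen, the number of arrays limits what that comparison can show.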
